A study of Mus musculus with 100 samples.

Results

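The loci of 9 transcription factors that make and maintain macrophages were followed through chromatin immunoprecipitation sequencing (ChIP-seq) of mouse bone marrow-derived macrophages. The 9 genes are Spi1, Cebpa, Cebpb, Cebpd, Irf8, Runx1, Maf, Mef2c and Klf4. Each of the 15 deposited tables lists the regions bound by a protein, or carrying a histone mark, with the nearest gene of every region. All regions whose listed gene was one of the 9 were taken, whatever their distance from it. They came to 2335 of the 610301 regions of all tables, and to between 60 and 289 regions in a single table. The same stretch of chromatin can be a region in several tables and is then counted in each.

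By the genotype labels every factor was mapped in wild type C57BL/6 mice, which the study's methods give as 8 to 12 weeks old. Cells received vehicle (Veh) or Kdo2-lipid A (KLA), a pure agonist of Toll-like receptor 4, for 6 hours, and the proteins mapped were the corepressor NCoR, the deacetylase HDAC3, the NF-kB subunit p65, the AP-1 member Fosl2, PU.1, the coactivators PGC1b and p300, and the kinase ERK1. By their labels the p300 Veh libraries were taken at the start of the KLA course, rather than after a stated time with vehicle. NCoR and PGC1b were also mapped with an ERK inhibitor plus KLA (ERKi_KLA), the second of these beside DMSO_Veh and DMSO_KLA. The labels of these groups give no KLA time, which the study's methods give as 6 hours. ERK1 and p300 were further mapped in bone marrow cells at Day0 and Day4 of osteoclast culture with RANKL and M-CSF. H3K27ac, the histone H3 lysine acetylation found at active enhancers and promoters, was mapped in 3 designs. The first set NCoR flox/flox mice, the WT group here, against NCoR flox/flox, LysMCre mice (NKO), each with Veh and KLA. The second set PGC1b flox/flox mice against PGC1b flox/flox, LysMCre mice, again with Veh and KLA. The third used wild type cells with DMSO_Veh, DMSO_KLA or the HDAC3 inhibitor RGFP966 plus KLA (RGFP966_KLA). LysMCre deletes in myeloid cells, so both deletions arise during the lineage that the 9 factors direct, and the controls of both designs carry the floxed alleles. H3K27ac does not measure the transcript of a deleted gene, so the deletions rest on the labels here. Every group had 2 libraries. The labels call them biological replicates without saying whether they came from separate animals, so the p-values measure the spread between these libraries, which may be technical.

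PU.1, the product of Spi1, is an ETS factor that opens macrophage enhancers together with C/EBP factors and Runx1. Irf8 pairs with PU.1 at composite elements and steers progenitors to the monocyte fate, whereas Maf restrains macrophage proliferation and Mef2c and Klf4 serve monocyte differentiation. Toll-like receptor 4 drives NF-kB and AP-1 into the nucleus, where NCoR and HDAC3 keep acetylation low at many enhancers until the signal arrives. The study of these libraries reports that KLA also joins NCoR and HDAC3 to PGC1b and p300. It describes that complex as a coactivator at sites that gain H3K27ac.

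Library totals ran from 4296236 to 21511411 tags. All levels below are scaled to a library of 10000000 tags and written as tags per 10M. Tags inside a table's regions took a share of the library that moved with the treatment. It was 12.7 and 14.41% for p65 with Veh and 34.05 and 37.06% with KLA, 51.6 and 52.83% for PU.1 with Veh and 41.46 and 41.73% with KLA, 34.16 and 33.32% for NCoR with KLA but 15.79 and 14.97% with the ERK inhibitor, and 3.08 and 3.16% for p300 at Day0 but 9.61 and 9.53% at Day4. The fold changes below are therefore per library total, and loss of a call when libraries were rescaled by TMM, which sets the bulk of regions as unchanged, is stated beside the result. Counts after TMM are given for the loci only, without the share over all regions. They show how the calls depend on the scaling and do not set the loci apart from the rest of a table. A region was called when edgeR's quasi-likelihood test gave a Benjamini-Hochberg adjusted p below 0.05 over all tested regions of the table together with a change of more than 2-fold. As a check of the cell type, all 6 macrophage marker genes had an H3K27ac region at their start in both tables built on wild type accessible sites, with 1090 to 2890 tags per 10M summed over the 6, and none of the B cell, T cell, neutrophil, fibroblast and osteoclast markers had one. The listed sites are the same for every library. The missing markers therefore reflect that list and do not measure the purity of single libraries. In the table of the NCoR design, 3 of the 6 macrophage markers and 1 of the 4 osteoclast markers, Ocstamp, had a region.

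The elements on which the results turn are shown by the central 150 bases of the region (mm10, plus strand), with matches to the motifs searched in capitals. The letters searched on both strands were GAGGAAG for ETS factors, TTGCNNAA for C/EBP, TGANTCA for AP-1 and TGTGGT for RUNX, beside an NF-kB and an IRF motif of 10 letters each. No match overlapped another in the sequences shown.

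The first set lost binding with KLA at most of the proteins mapped. It holds the Klf4 element 209 kb upstream of the gene (chr4:55741459-55741669, intergenic), the Mef2c element 1.48 kb upstream of an internal start (chr13:83572021-83572241, intron of Mef2c), the Runx1 element 24.2 kb inside the gene from its upstream promoter (chr16:92801759-92801979, intron), the adjoining Runx1 element at 25 kb (chr16:92800935-92801160) and the Cebpa element 20.3 kb upstream (chr7:35098914-35099121, intergenic).
Klf4, 209 kb upstream: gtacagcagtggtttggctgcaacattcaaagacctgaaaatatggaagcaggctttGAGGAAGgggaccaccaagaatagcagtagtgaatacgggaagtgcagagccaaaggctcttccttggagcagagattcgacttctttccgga
Mef2c, 1.48 kb upstream: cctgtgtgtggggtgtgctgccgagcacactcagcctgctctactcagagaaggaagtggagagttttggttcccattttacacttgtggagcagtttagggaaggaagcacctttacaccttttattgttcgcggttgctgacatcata
Runx1, 24.2 kb inside: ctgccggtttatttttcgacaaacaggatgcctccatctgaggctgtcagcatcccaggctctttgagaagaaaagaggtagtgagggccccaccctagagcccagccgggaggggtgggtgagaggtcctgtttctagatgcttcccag
Runx1, 25 kb inside: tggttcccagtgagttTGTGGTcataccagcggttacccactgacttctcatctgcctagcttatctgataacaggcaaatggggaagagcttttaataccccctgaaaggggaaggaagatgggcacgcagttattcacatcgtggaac
Cebpa, 20.3 kb upstream: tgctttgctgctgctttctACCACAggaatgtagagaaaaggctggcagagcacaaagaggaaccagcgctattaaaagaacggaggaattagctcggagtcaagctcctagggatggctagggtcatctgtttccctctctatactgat

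The second set gained binding with KLA. It holds the Cebpd element 97.1 kb downstream of the gene, in an intron of Spidr (chr16:15984330-15984536), the Irf8 element 24.9 kb upstream (chr8:120711379-120711591, intergenic), the Maf element 309 kb downstream (chr8:115398068-115398334, intergenic) and the Spi1 element 6.22 kb upstream of the listed start (chr2:91090336-91090573, in an intron of a longer Spi1 transcript).
Cebpd, 97.1 kb downstream: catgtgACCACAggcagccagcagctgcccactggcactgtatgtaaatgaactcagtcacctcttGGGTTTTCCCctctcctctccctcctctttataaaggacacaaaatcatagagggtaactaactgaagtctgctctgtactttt
Irf8, 24.9 kb upstream: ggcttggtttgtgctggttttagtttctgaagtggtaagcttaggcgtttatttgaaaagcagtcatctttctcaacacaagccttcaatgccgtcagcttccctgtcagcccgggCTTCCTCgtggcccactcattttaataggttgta
Maf, 309 kb downstream: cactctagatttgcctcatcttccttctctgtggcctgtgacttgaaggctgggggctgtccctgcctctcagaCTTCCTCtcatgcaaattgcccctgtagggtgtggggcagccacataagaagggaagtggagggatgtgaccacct
Spi1, 6.22 kb upstream: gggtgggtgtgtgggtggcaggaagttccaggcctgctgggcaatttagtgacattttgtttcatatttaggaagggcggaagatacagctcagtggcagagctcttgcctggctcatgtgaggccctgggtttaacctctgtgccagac

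The Cebpd element held the letters of an NF-kB and a RUNX motif, and the Klf4, Irf8 and Maf elements those of an ETS motif. Over whole tables, the NF-kB letters were found in the central 200 bases of 5.56% of the p65 regions of the 9 loci and of 8.04% of all p65 regions, and the ETS letters in 41.6% of the PU.1 regions of the 9 loci and of 36.5% of all. The promoter of Cebpa, at which most proteins fell with KLA, is shown over 300 bases from RefSeq (GRCm38.p6, chr7:35119043-35119342) and held none of the letters searched.
Cebpa promoter: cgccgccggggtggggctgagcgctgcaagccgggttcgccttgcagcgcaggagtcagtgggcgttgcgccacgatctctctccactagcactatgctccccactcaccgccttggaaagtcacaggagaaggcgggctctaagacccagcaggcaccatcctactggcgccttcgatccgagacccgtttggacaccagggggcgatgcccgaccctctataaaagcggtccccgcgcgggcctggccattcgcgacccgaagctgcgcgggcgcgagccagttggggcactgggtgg

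The 9 loci differed in size. Klf4 and Maf lie in gene deserts, and 347 of the 438 Klf4 regions and 452 of the 611 Maf regions, counted over all tables, were more than 100 kb from the gene's start. Runx1, a gene with an upstream and a downstream promoter, had 598 regions, of which 129 were that far away. Irf8 had 198 regions, Mef2c 176, Cebpd 106, Cebpa 93 and Spi1 90, and Cebpb had 25, none of them in the Day0 and Day4 tables. Of all the Spi1, Cebpa, Cebpb and Irf8 regions none lay beyond 100 kb. As a description, 30.2% of the NCoR regions of the 9 loci had a region within 500 bp in each of the other 7 KLA tables, beside 23.7% of all NCoR regions, and the shares were 35.1% and 25.4% for PU.1.

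KLA moved binding at the 9 loci in both directions. NCoR was called higher at 41 of 215 regions and lower at 41, where 23.4% and 16.7% of all NCoR regions were called higher and lower. HDAC3 was called higher at 48 and lower at 30 of 194 regions, against 27.5% and 11.3% of all its regions. The shares at the loci lay near the background for gains, and the fraction of losses was 19.1% for NCoR and 15.5% for HDAC3. Leaving out 1 library moved these counts: the NCoR total of 82 was 39 without KLA replicate 1 and 37 without KLA replicate 2, and the HDAC3 total of 78 was 23 without Veh replicate 1 and 26 without Veh replicate 2. After TMM the HDAC3 calls were 38 higher and 42 lower.

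p65 was called higher at 110 of 198 regions of the loci and lower at 8, where 57% and 5.43% of all p65 regions were called. Its counts rested on the scaling: the median log2 change was 1.37 at the loci and 1.46 over all regions, but 0.16 and 0.24 after TMM, when 49 regions were called higher and 37 lower. Without KLA replicate 1 the total of 118 was 70, and without KLA replicate 2 it was 64. p300 was called higher at 112 and lower at 60 of 289 regions, against 42.1% and 12.9% over all, and at 84 and 91 after TMM. Its losses took 20.8% of the p300 regions of the loci, and every gene but Spi1 and Cebpb had at least 1.

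PU.1 was called lower at 48 of 185 regions of the loci and higher at 8, where 21.7% and 4.53% of all PU.1 regions were called lower and higher. The median log2 change was -0.50 at the loci and -0.41 over all regions, and 27 regions were called lower and 13 higher after TMM. PGC1b was called higher at 32 and lower at 22 of 182 regions, against 16.4% and 6.35% of all. Without Veh replicate 1 or 2 the PGC1b total of 54 was 25 or 23. In the experiment with DMSO, PGC1b was called higher at 43 and lower at 10 of 205 regions, against 16.4% and 1.23% of all, and at 19 and 16 after TMM. That total of 53 was 24 and 23 without either DMSO_Veh library, and 32 without DMSO_KLA replicate 1.

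Fosl2 was called higher at 17 and lower at 9 of 137 regions, against 11.4% and 4.19% of all Fosl2 regions, and at 24 and 18 after TMM. No Fosl2 region of the loci was called without Veh replicate 1 or without Veh replicate 2, while the total was 51 and 60 without either KLA library, 1 of which held 4296236 tags. Fosl2 values are therefore given only as levels below. ERK1 was called higher at 14 and lower at 8 of 123 regions, against 10.3% and 2.53% of all, and the total of 22 was 6 and 3 without either KLA library. For all factors, a bulk measurement cannot tell fewer bound cells from less binding per cell.

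**Figure D1:**
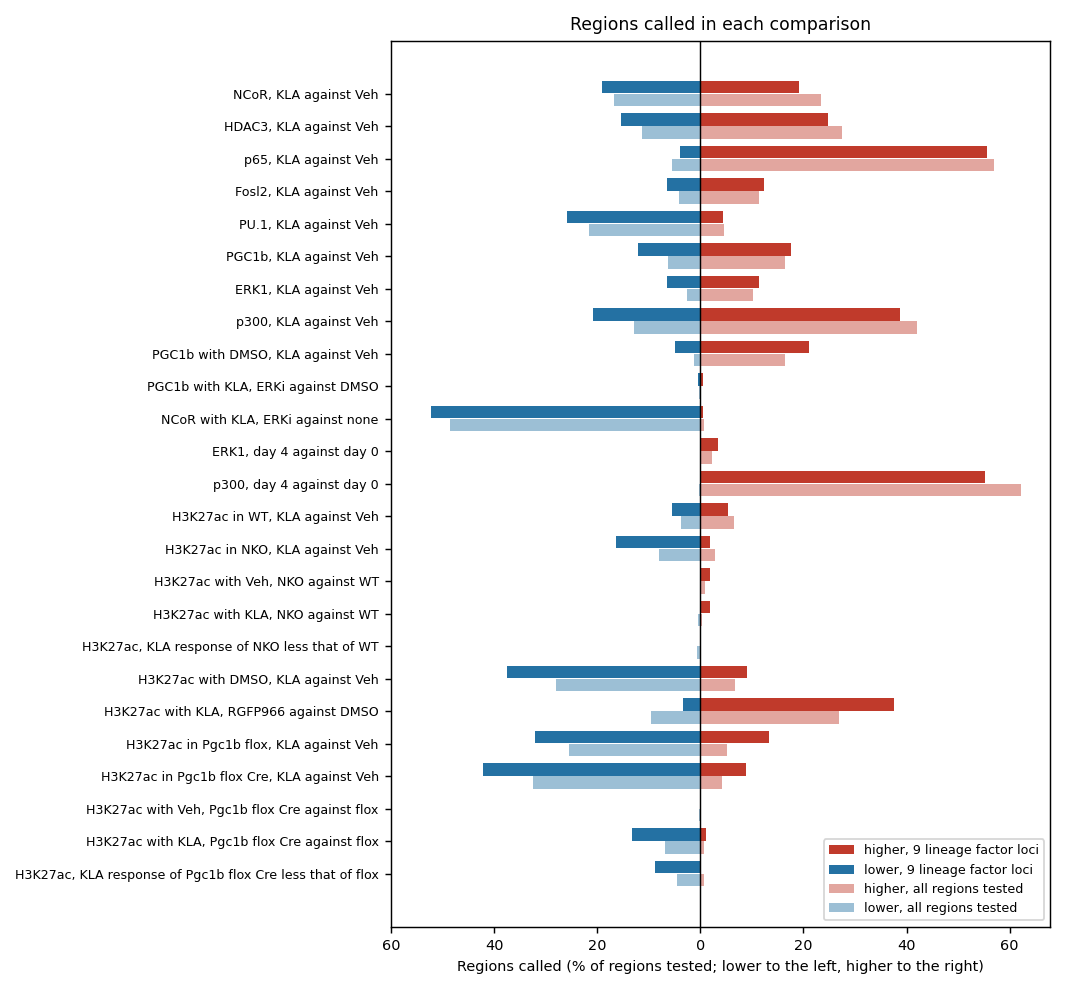
Share of tested regions called in each comparison (horizontal axis, percent of regions tested, lower to the left and higher to the right) for the 9 loci (dark bars) and for all regions of the table (light bars). For PU.1 with KLA the loci reached 25.9% lower against 21.7% over all, and for H3K27ac with RGFP966 37.5% higher against 26.9% over all.

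The calls were not spread evenly over the genes. Maf had more gains than losses for each of NCoR (16 higher and 6 lower of 55), HDAC3 (13 and 5 of 45), p65 (37 and 1 of 52), PGC1b (15 and 2 of 48) and p300 (36 and 11 of 77), although its PU.1 regions were 4 higher and 5 lower of 41, or 6 and 2 after TMM. Klf4 went the other way, with 4 higher and 13 lower of 41 NCoR regions, 4 and 9 of 40 HDAC3 regions, none higher and 16 lower of 35 PU.1 regions and 1 higher and 11 lower of 37 PGC1b regions. Klf4 p300 and p65 regions did not share that tilt by library totals, with 17 higher and 15 lower of 52 and 8 higher and 1 lower of 26, but did after TMM, with 13 and 24 and with 4 and 7. Runx1 had 11 higher and 9 lower of 55 for NCoR, 1 and 12 of 57 for PU.1 (2 and 3 after TMM) and 27 and 13 of 77 for p300 (21 and 19). For a further 26 factors of the myeloid and blood lineages the counts were 79 higher and 82 lower of 350 for NCoR, 18 and 67 of 303 for PU.1 and 186 and 75 of 438 for p300.

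**Figure D2:**
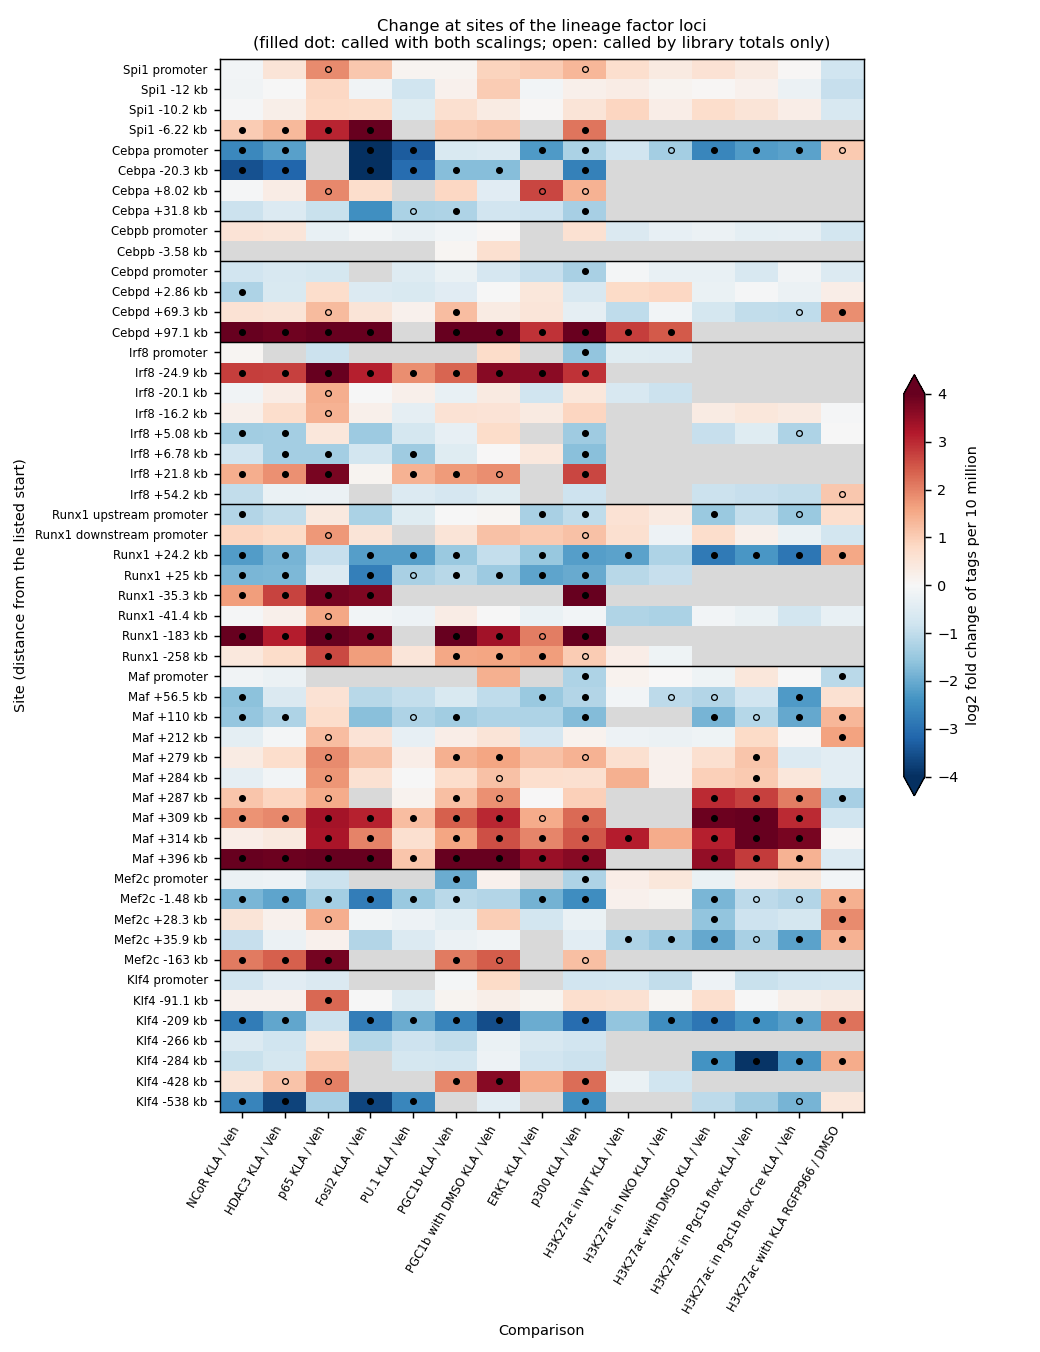
Log2 fold change (colour, clipped at 4 in both directions) at named sites of the 9 loci (rows, by distance from the listed start) in 15 comparisons (columns). Filled dots mark calls made with library totals and with TMM, open dots calls made with library totals only, and grey cells sites without a region in that table or not tested.

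Spi1 showed gains close to the gene and few losses. At the promoter (chr2:91096578-91096802, overlapping the first exon) p300 rose from 77.7 and 102 tags per 10M with Veh to 223 and 227 with KLA, a log2 change of 1.33 (SE 0.17, adjusted p = 6.83e-06) that was 0.80 and not called after TMM. p65 there rose from 79.7 and 80.2 to 271 and 320, by 1.89 (SE 0.21, adjusted p = 2.71e-05), or 0.66 and not called after TMM. PU.1 itself, which binds its own gene, had 135 and 127 tags per 10M at the promoter with Veh and 135 and 146 with KLA, and the log2 change was 0.10. Thus, p65 and p300 but not PU.1 passed the test at the promoter by library totals.

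The Spi1 element 6.22 kb upstream kept its calls with both scalings. p65 rose there from 12.3 and 15.8 tags per 10M to 92.2 and 144 (log2 change 3.06, SE 0.38, adjusted p = 5.09e-05), and p300 from 21.9 and 15.8 to 77.8 and 89.2 (2.14, SE 0.29, adjusted p = 1.01e-05). HDAC3 rose from 30.6 and 28.2 to 61.5 and 86.1, a log2 change of 1.30 that was no longer called without Veh replicate 1 (1.37) or replicate 2 (1.25). In all of these the KLA libraries lay above both Veh libraries, and Fosl2 went from 0 and 1.05 to 62.8 and 65.5 tags per 10M. PU.1 had no region at this element. Farther upstream, at 12 kb (chr2:91084506-91084816), PU.1 went from 244 and 208 to 131 and 131 tags per 10M, a log2 change of -0.80 that passed the adjusted p (6.52e-12) but not the 2-fold limit. At 10.2 kb (chr2:91086414-91086635), whose centre carried the letters of RUNX, NF-kB and AP-1 motifs, PU.1 went from 253 and 242 to 190 and 162, a change of -0.50. A strongly bound PU.1 region 15.4 kb upstream of Spi1, within the stretch where its upstream regulatory element lies, is listed under the neighbouring gene Slc39a13 and had 312 and 326 tags per 10M with Veh and 298 and 296 with KLA.

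Cebpa, which encodes the C/EBP factor of myeloid progenitors, lost binding at its promoter, while other regions of the locus gained. With KLA p300 was called higher at 3 and lower at 4 of 9 Cebpa regions (2 and 4 after TMM), p65 at 3 and 1 of 7 (1 and 2 after TMM), HDAC3 at 3 and 2 of 8 (2 and 2 after TMM), NCoR at 1 and 3 of 9 and PU.1 at none and 5 of 8 (none and 3 after TMM). At the promoter NCoR had 232 and 326 tags per 10M with Veh and 53.5 and 39.4 with KLA, and HDAC3 had 316 and 298 with Veh and 44.5 and 100 with KLA. Both fell, NCoR by 2.59 on the log2 scale (SE 0.26, adjusted p = 8.08e-05) and HDAC3 by 2.16 (SE 0.39, adjusted p = 3.95e-07). PU.1 went from 49.6 and 42.9 to 4.58 and 4.46, a log2 change of -3.34 (SE 0.31, adjusted p = 4.3e-19), and p300 from 60.8 and 71.6 to 26.1 and 29.2, a change of -1.26 (SE 0.28, adjusted p = 0.000958). All KLA libraries lay below all Veh libraries for these 4 proteins. ERK1 fell from 73.9 and 59 to 14.8 and 12.2 (-2.28), a call lost without KLA replicate 1 (-2.42) or replicate 2 (-2.15), and Fosl2 had 106 and 69.2 tags per 10M with Veh and 0 and 3.51 with KLA.

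H3K27ac at the Cebpa promoter fell with KLA by both scalings in 3 sets of libraries, but not in the NCoR design. It was 279 and 317 tags per 10M in PGC1b flox/flox cells with Veh and 63.7 and 62 with KLA, a log2 change of -2.24 (SE 0.14, adjusted p = 1.49e-52). In the LysMCre cells it was 269 and 294 with Veh and 54.9 and 71 with KLA, a change of -2.15 (SE 0.14, adjusted p = 1.02e-46), and in DMSO cells 279 and 314 with Veh and 55 and 41.2 with KLA, a change of -2.61 (SE 0.24, adjusted p = 2.38e-26). No KLA library reached a Veh library in any of the 3 sets. In the NCoR design, whose region there is narrower (chr7:35119000-35119431), WT cells had 26.5 and 25.5 with Veh and 17.6 and 12.4 with KLA, a change of -0.78 that did not pass the test (SE 0.44, adjusted p = 0.248). NKO cells had 31 and 22.1 with Veh and 15.4 and 4.17 with KLA (-1.37, SE 0.46, adjusted p = 0.036), a call lost after TMM (-1.16) and without NKO KLA replicate 2 (-0.77), NKO Veh replicate 1 (-1.11) or either WT Veh library (-1.37 each).

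The Cebpa element 20.3 kb upstream lost the same proteins. PU.1 fell from 163 and 159 to 17.7 and 21 tags per 10M (log2 change -3.05, SE 0.18, adjusted p = 5.38e-35), NCoR from 119 and 148 to 18.6 and 5.53 (-3.50, SE 0.44, adjusted p = 0.000236) and p300 from 80.2 and 81.5 to 15.3 and 9.19 (-2.71, SE 0.32, adjusted p = 2.49e-06). HDAC3 went from 121 and 122 to 12.3 and 15.8, a change of -3.16 (SE 0.45, adjusted p = 6.08e-11). None of these groups overlapped. The most strongly PU.1-bound Cebpa region, 31.8 kb downstream (chr7:35150965-35151174), went from 313 and 302 to 136 and 120, a change of -1.26 (SE 0.10, adjusted p = 1.05e-24) that was -0.85 and not called after TMM. A region 37.3 kb downstream, at the distance of the known Cebpa enhancer, is listed under Slc7a10. NCoR there fell from 118 and 97.7 to 22.7 and 18, by 2.41 on the log2 scale (SE 0.32, adjusted p = 0.000316). Gains at a region 8015 bp downstream (chr7:35127193-35127423) were called by library totals only. There p300 went from 30.7 and 44.7 to 96.7 and 99.4 (1.38, SE 0.25, adjusted p = 0.000148; 0.86 and not called after TMM), and p65 from 14 and 29.8 to 90.8 and 75.9 (1.93, SE 0.39, adjusted p = 0.0014; 0.73 and not called after TMM, and 1.79 and not called without KLA replicate 1). Summed over its regions, p65 at Cebpa went from 142 and 150 to 308 and 310 tags per 10M and PU.1 from 810 and 793 to 315 and 329 tags per 10M.

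**Figure D3:**
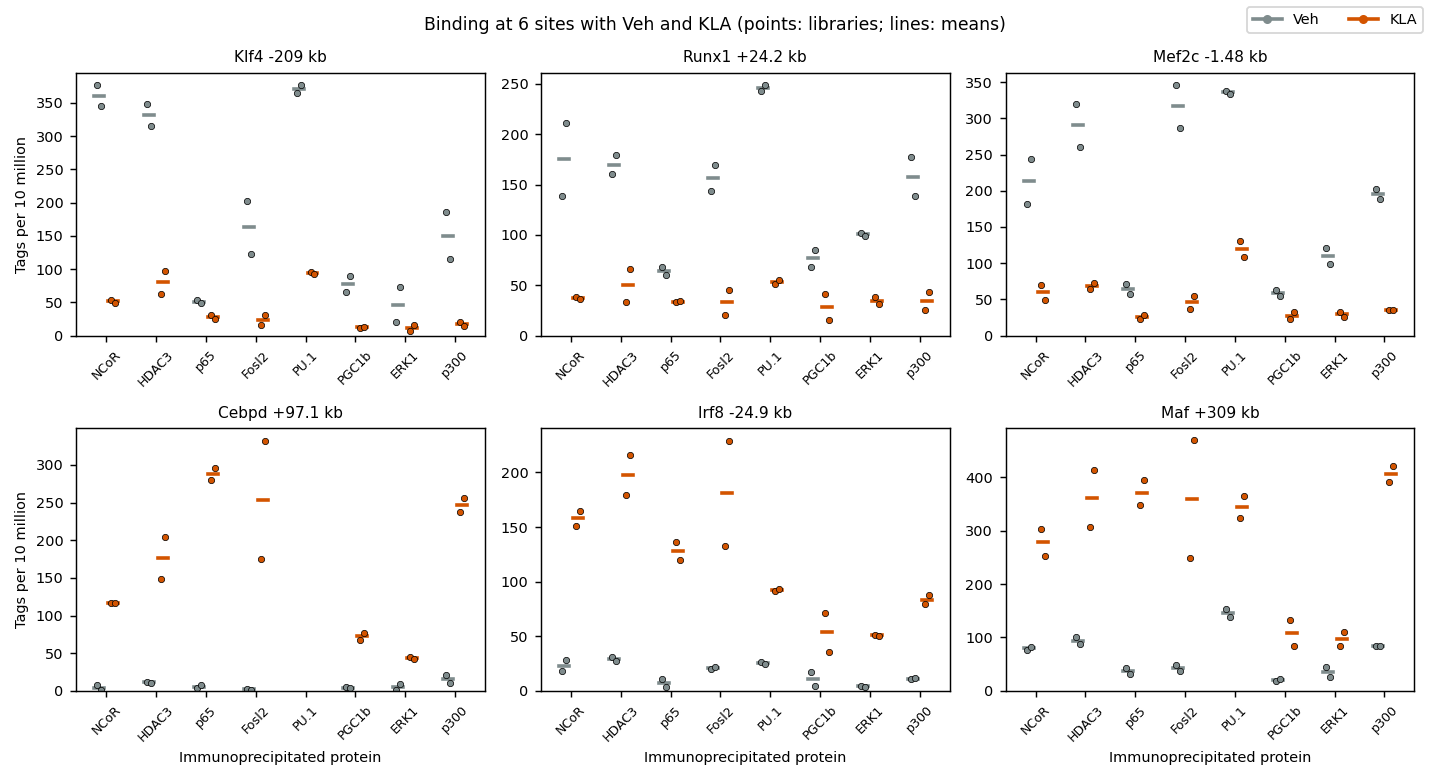
Tags per 10M of each library (points) and group means (lines) for the 8 proteins (horizontal axis) with Veh and KLA at 3 sites that lost and 3 that gained binding. At the Klf4 site PU.1 fell from 364 and 376 to 95.5 and 93, and at the Cebpd site p65 rose from 3.5 and 7.46 to 280 and 296. The Cebpd site had no PU.1 region.

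Cebpb, an inflammatory C/EBP gene with a short locus, had few regions and few calls. There were 1 or 2 Cebpb regions in each of the NCoR, HDAC3, p65, PU.1 and p300 tables. None of its NCoR, HDAC3, p65 or PU.1 regions was called with KLA, and 1 of its 2 p300 regions was called higher. PGC1b had 5 regions, and 6 in the experiment with DMSO. Its strongest, 3.58 kb upstream, had 116 and 90.2 tags per 10M with Veh and 102 and 113 with KLA. With DMSO, PGC1b at chr2:167688887-167689204 rose from 30.9 and 5.83 to 80.9 and 83.4 (2.05, SE 0.56, adjusted p = 0.0112), a call lost after TMM (1.51). At the promoter (chr2:167688685-167689047) NCoR had 75.3 and 75.3 tags per 10M with Veh and 120 and 99.6 with KLA, a log2 change of 0.54, and PU.1 had 93.6 and 78.4 with Veh and 81.8 and 65.6 with KLA. p65 was 63.9 and 67.1 with Veh and 42.1 and 63.6 with KLA, a change of -0.31 that became -1.54 and called lower after TMM.

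Cebpd, another C/EBP gene induced by inflammation, held the largest gain of p65 among the named sites of the loci. At the element 97.1 kb downstream p65 had 3.5 and 7.46 tags per 10M with Veh and 280 and 296 with KLA, a log2 change of 5.71 (SE 0.34, adjusted p = 7.91e-07), and 4.50 after TMM. NCoR and HDAC3 came with it. NCoR went from 7.17 and 1.18 to 117 and 117 (4.78, SE 0.49, adjusted p = 9.66e-05) and HDAC3 from 12.4 and 11.1 to 148 and 205 (3.90, SE 0.43, adjusted p = 1.18e-17). Coactivators also rose, p300 from 21.3 and 10.5 to 238 and 256 (3.94, SE 0.25, adjusted p = 1.98e-09) and PGC1b from 4.7 and 3.72 to 67.7 and 77.2 (4.10, SE 0.43, adjusted p = 5.8e-06). In the experiment with DMSO, PGC1b had 0.812 and 0 tags per 10M with DMSO_Veh and 195 and 130 with DMSO_KLA (adjusted p = 2.52e-08), and Fosl2 had 2.82 and 1.05 with Veh and 175 and 332 with KLA. No library with Veh reached a library with KLA in any of these comparisons.

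H3K27ac rose at the same Cebpd element in both genotypes of the NCoR design, from 5.04 and 3.06 to 32.7 and 22.7 tags per 10M in WT (log2 change 2.78, SE 0.55, adjusted p = 0.000209) and from 2.95 and 4.06 to 19.6 and 20.1 in NKO (2.46, SE 0.58, adjusted p = 0.0021). PU.1 had no region there. Nearer the gene the picture was mixed. The region 2.86 kb downstream (chr16:15890029-15890257) lost NCoR, from 327 and 372 to 147 and 149 (-1.24, SE 0.18, adjusted p = 0.000504), and the promoter (chr16:15887047-15887257) lost p300, from 72.7 and 62.4 to 24.6 and 30.3 (-1.30, SE 0.28, adjusted p = 0.000756). Over the whole locus PU.1 summed to 678 and 668 tags per 10M with Veh and 688 and 670 with KLA.

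Irf8, the interferon regulatory factor that partners PU.1, gained PU.1 at its element 24.9 kb upstream, but PU.1 was not called at the named upstream elements nearer the gene. At 16.2 kb upstream, the Irf8 region with the most PU.1, the mean went from 331 to 254 tags per 10M. That log2 change of -0.37 passed the adjusted p (5.83e-05) but not the 2-fold limit, and was 0.04 after TMM. At 20.1 kb upstream the mean went from 57.8 to 65.9 (0.20). At 24.9 kb upstream PU.1 had 26.4 and 24.9 tags per 10M with Veh and 91.6 and 93.7 with KLA, a log2 change of 1.85 (SE 0.19, adjusted p = 4.64e-16), where most called PU.1 regions of the loci fell. p65 rose there from 10.5 and 3.73 to 136 and 120 (4.14, SE 0.42, adjusted p = 1.38e-05), NCoR from 17.9 and 28.2 to 151 and 165 (2.77, SE 0.30, adjusted p = 0.00012) and HDAC3 from 31.3 and 27.6 to 179 and 216 (2.74, SE 0.39, adjusted p = 5.08e-11). ERK1 rose from 4.72 and 3.47 to 51.6 and 50.4 (3.61, SE 0.67, adjusted p = 0.0105), a call kept whichever library was left out. The element 21.8 kb downstream (chr8:120760312-120760537) gained the same factors, p65 from 7 and 11.2 to 120 and 135 (3.80, SE 0.37, adjusted p = 9.9e-06), PU.1 from 32.6 and 33.6 to 84.4 and 89.2 (1.39, SE 0.19, adjusted p = 3.44e-11) and p300 from 23.2 and 13.1 to 113 and 121 (2.67, SE 0.28, adjusted p = 6.13e-07).

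Inside the Irf8 gene binding fell. Distances inside and downstream of Irf8 are from an internal listed start at 120738639, and those upstream are from the first start at 120736358. PU.1 at 6.78 kb (chr8:120745312-120745525, intron) went from 225 and 234 to 80.5 and 90.5 tags per 10M (-1.42, SE 0.11, adjusted p = 5.95e-24), and p300 from 78.4 and 79.5 to 19.4 and 29.7 (-1.68, SE 0.28, adjusted p = 8.82e-05). NCoR at 5.08 kb (chr8:120743550-120743886, overlapping an exon) fell from 213 and 288 to 96.4 and 96.1 (-1.38, SE 0.22, adjusted p = 0.000739). The promoter (chr8:120736222-120736443) lost p300, from 75.8 and 58.5 to 23 and 21.6 (-1.59, SE 0.29, adjusted p = 0.000214). Gains and losses thus lay side by side at Irf8, and PU.1 over the locus summed to 2230 and 2320 with Veh and 1630 and 1660 with KLA. At 54.2 kb downstream, in the range of the known Irf8 enhancer, no KLA comparison gave a call by library totals. After TMM, edgeR's test called NCoR (-1.01, adjusted p = 0.044), p300 (-1.34, adjusted p = 0.00153) and p65 (-1.45, adjusted p = 0.0102) lower there. PU.1 changed by -0.56 by library totals, under the 2-fold limit (adjusted p = 6.05e-07), and by -0.15 after TMM.

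Runx1, the runt factor of blood stem cells that also cooperates with PU.1, lost binding at an intronic element. At 24.2 kb inside the gene PU.1 had 243 and 249 tags per 10M with Veh and 51 and 55.4 with KLA, a log2 change of -2.20 (SE 0.12, adjusted p = 1.99e-36). NCoR went from 139 and 211 to 38.1 and 36 (-2.24, SE 0.28, adjusted p = 0.000238) and p300 from 177 and 139 to 25.1 and 43.2 (-2.21, SE 0.25, adjusted p = 1.33e-06). Veh and KLA libraries did not overlap for any of the 3. H3K27ac over this element was 309 and 337 with Veh and 68.6 and 58.3 with KLA in PGC1b flox/flox cells (-2.34, SE 0.13, adjusted p = 2.1e-61), and 482 and 485 with DMSO_Veh and 74.5 and 61.4 with DMSO_KLA (-2.82, SE 0.22, adjusted p = 4.46e-35). The adjoining region at 25 kb lost NCoR, from 246 and 278 to 68.8 and 77.5 (-1.84, SE 0.21, adjusted p = 0.000137), and p300, from 227 and 214 to 48.6 and 60 (-2.02, SE 0.18, adjusted p = 1.07e-07).

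Gains at Runx1 lay elsewhere. The region 183 kb upstream (chr16:93009144-93009403, intergenic) went from 4.78 and 1.18 to 79.4 and 100 tags per 10M for NCoR (4.87, SE 0.53, adjusted p = 0.000122), from 0.876 and 4.66 to 115 and 133 for p65 (5.46, SE 0.50, adjusted p = 7.1e-06) and from 1.88 and 13.8 to 210 and 195 for p300 (4.70, SE 0.36, adjusted p = 2.02e-08). The intronic region 35.3 kb upstream of the downstream promoter (chr16:92732532-92732742) gained p300, from 6.89 and 7.23 to 148 and 137 (4.32, SE 0.28, adjusted p = 3.63e-09), and p65, from 13.1 and 6.53 to 130 and 153 (3.82, SE 0.37, adjusted p = 1.05e-05). The region 258 kb upstream (chr16:93084375-93084630) had, for p65, 78.8 and 80.2 with Veh and 473 and 521 with KLA (2.64, SE 0.20, adjusted p = 1.93e-06). The 2 promoters of Runx1 moved apart in H3K27ac. At the upstream promoter (chr16:92825880-92826127) the mark fell from 392 and 368 with DMSO_Veh to 143 and 129 with DMSO_KLA (-1.48, SE 0.21, adjusted p = 7.78e-12), whereas at the downstream promoter (chr16:92697253-92697598) it was 282 and 311 and then 529 and 427, a log2 change of 0.69 that was under 2-fold by library totals and 1.12, called higher, after TMM.

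Maf, the large Maf factor of resting tissue macrophages, gained binding far downstream. At 309 kb p65 had 42 and 30.8 tags per 10M with Veh and 348 and 395 with KLA (3.34, SE 0.24, adjusted p = 1.66e-06), and PU.1 had 153 and 139 with Veh and 324 and 365 with KLA (1.24, SE 0.09, adjusted p = 1.83e-25). NCoR rose from 76.5 and 82.4 to 304 and 252 (1.80, SE 0.21, adjusted p = 0.00017). H3K27ac at the site went from 6.17 and 6.24 to 129 and 105 in PGC1b flox/flox cells (4.22, SE 0.31) and from 5.81 and 11.3 to 141 and 120 with DMSO (3.93). Still farther, 396 kb downstream in an intron of Wwox (chr8:115310622-115310855), NCoR rose from 3.58 and 2.35 to 66.4 and 68.5 (4.46, SE 0.51, adjusted p = 0.000158), and p300 from 13.2 and 9.86 to 143 and 144 (3.63). PU.1 there went from 64.1 and 76.6 to 156 and 147, a change of 1.12 that was not called without Veh replicate 1 (0.99).

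Closer to Maf binding fell. The region 56.5 kb downstream (chr8:115650286-115650533) lost NCoR, from 268 and 267 to 96.4 and 74 tags per 10M (-1.65, SE 0.21, adjusted p = 0.000252). The region 110 kb downstream (chr8:115597218-115597470) lost NCoR, from 149 and 206 to 66.4 and 54 (-1.56, SE 0.25, adjusted p = 0.00088), and p300, from 234 and 200 to 60.9 and 69.2 (-1.74, SE 0.18, adjusted p = 4.62e-07). KLA libraries were the lower in both. Over all Maf regions the PU.1 sum was 5460 and 5520 with Veh and 5060 and 5170 with KLA.

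Mef2c, a MADS box factor of myeloid and muscle cells, lost binding at its intronic element 1.48 kb upstream of an internal start. PU.1 there had 338 and 334 tags per 10M with Veh and 130 and 108 with KLA (-1.50, SE 0.10, adjusted p = 1.92e-30). HDAC3 went from 320 and 261 to 63.9 and 72 (-2.11, SE 0.38, adjusted p = 5.2e-07), NCoR from 182 and 244 to 70.5 and 49.8 (-1.83, SE 0.26, adjusted p = 0.000412) and p300 from 203 and 189 to 35.8 and 35.1 (-2.47, SE 0.19, adjusted p = 2.15e-08). All 4 proteins were thus lower in both KLA libraries. Fosl2 was 346 and 287 with Veh and 37.2 and 54.9 with KLA. The single Mef2c gain of p65 that held with both scalings among the named sites was 163 kb upstream (chr13:83341398-83341622), from 0.876 and 7.46 to 66.8 and 51.3 (3.82, SE 0.63, adjusted p = 0.000347), and HDAC3 rose there from 18.2 and 22.1 to 83.8 and 135 (2.40, SE 0.42, adjusted p = 1.26e-07). PU.1 over the locus summed to 1220 and 1180 with Veh and 629 and 561 with KLA.

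Klf4, a zinc finger factor of monocyte differentiation, had losses at single distant elements and gains at others. With KLA NCoR was called lower at 13 and higher at 4 of 41 regions, PU.1 at 16 and none of 35 (10 and 1 after TMM), p300 at 15 and 17 of 52 (24 and 13 after TMM) and p65 at 1 and 8 of 26 (7 and 4 after TMM). At 209 kb upstream NCoR had 376 and 345 tags per 10M with Veh and 54.3 and 49.8 with KLA (-2.79, SE 0.20, adjusted p = 2.78e-05), and PU.1 had 364 and 376 with Veh and 95.5 and 93 with KLA (-1.97, SE 0.10, adjusted p = 5.34e-40). HDAC3 fell from 348 and 315 to 63.3 and 96.6 (-2.09, SE 0.39, adjusted p = 9.63e-07), p300 from 186 and 115 to 21 and 15.1 (-3.05, SE 0.28, adjusted p = 1.57e-07) and PGC1b from 65.8 and 90.2 to 10.9 and 13.7 (-2.63, SE 0.38, adjusted p = 9.28e-05). p65 was 53.4 and 48.5 with Veh and 30.7 and 25.3 with KLA, a change of -0.86 that did not pass the test (adjusted p = 0.0563) but was -2.08 and called after TMM. The region 538 kb upstream (chr4:56070740-56071014) also fell, NCoR from 58.5 and 57.7 to 8.91 and 9.68 (-2.63, SE 0.42, adjusted p = 0.00083) and PU.1 from 33.1 and 39.2 to 3.93 and 7.65 (-2.61, SE 0.30, adjusted p = 6.02e-14). Gains at Klf4 were p300 428 kb upstream (chr4:55960123-55960360), from 29.5 and 25 to 124 and 131 (2.22, SE 0.23, adjusted p = 5.97e-07), and p65 91.1 kb upstream (chr4:55623493-55623704), from 30.6 and 31.7 to 126 and 183 (2.31, SE 0.30, adjusted p = 7.08e-05). PU.1 over the locus summed to 3370 and 3360 with Veh and 1740 and 1700 with KLA, a description over 35 regions without a test.

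In 4 of the 5 sets of libraries H3K27ac was called lower with KLA more often than higher, at the loci as over all regions, and in the WT cells of the NCoR design 3 regions were called in each direction. Over all regions of that WT set gains outnumbered losses, at 6.49% against 3.72%. The DMSO and PGC1b sets were counted only in windows at sites accessible with vehicle. Sites that open with KLA can be missing from them, so their balance holds for those windows only. The Cebpd element 97.1 kb downstream, which gained the mark in the NCoR design, had no region among those windows. In DMSO cells 33 of 88 tested regions (95 listed, 7 under the minimum count) were called lower and 8 higher, where 28.1% and 6.73% of all regions were called, and the median log2 change was -0.61 at the loci and -0.42 over all. After TMM the counts were 23 lower and 16 higher. All 8 gains were at Maf, and Klf4 had 12 losses of 19 regions, Mef2c 6 of 9 and Runx1 5 of 13. In PGC1b flox/flox cells 29 of 90 regions were lower and 12 higher, against 25.6% and 5.22% of all (18 and 14 after TMM), and again all gains were at Maf. In the LysMCre cells of that design 38 were lower and 8 higher, against 32.5% and 4.18% of all, or 24 and 12 after TMM.

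RGFP966, given with KLA, went with more gains than losses of H3K27ac at the loci, counted over the same windows of sites accessible with vehicle. Of 88 regions 33 were called higher and 3 lower than with DMSO_KLA, where 26.9% and 9.53% of all regions were called, and the median log2 change was 0.62 at the loci and 0.39 over all. After TMM the counts were 26 and 11. The higher regions were 12 of 19 at Klf4, 7 of 9 at Mef2c, 9 of 32 at Maf, 2 of 6 at Irf8 and 1 each at Cebpa, Cebpd and Runx1, and all 3 lower regions were at Maf. This comparison and that of DMSO_KLA against DMSO_Veh share the DMSO_KLA libraries, so the values of all 3 groups are set side by side.

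At the Klf4 element 209 kb upstream H3K27ac was 117 and 95.1 tags per 10M with DMSO_Veh, 14.2 and 14.3 with DMSO_KLA and 66.5 and 63.7 with RGFP966_KLA (RGFP966_KLA against DMSO_KLA 2.18, SE 0.31, adjusted p = 5.31e-11). The inhibitor group lay between the other two. Runx1 at 24.2 kb had 482 and 485, 74.5 and 61.4, and 236 and 165 in the same order (1.55, SE 0.22, adjusted p = 7.63e-11). Mef2c had 212 and 190, 53.7 and 59.7, and 178 and 127 at 1.48 kb upstream of its internal start (1.43, SE 0.24, adjusted p = 1.7e-08). At 28.3 kb downstream of that internal start it had 142 and 126, 47.3 and 42.9, and 180 and 154 (1.88, SE 0.24, adjusted p = 6.33e-13), where the inhibitor group was the highest of the 3. At the Cebpa promoter the values were 279 and 314, 55 and 41.2, and 103 and 100 (1.06, SE 0.24, adjusted p = 5.75e-05), a call lost without DMSO_KLA replicate 2 (0.88) and after TMM (0.72).

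Other sites broke this order. Cebpd at 69.3 kb downstream (chr16:15956383-15956721) had 48.2 and 71.5 with DMSO_Veh, 42.1 and 30.3 with DMSO_KLA and 140 and 125 tags per 10M with RGFP966_KLA (1.85, SE 0.25, adjusted p = 1.21e-11). Maf at 212 kb rose with the inhibitor from 68 and 70.7 to 253 and 167 (1.60, SE 0.23, adjusted p = 7.97e-11). Maf at 287 kb (chr8:115419810-115420810), a site that gained the mark with KLA, had 43.2 and 57.6, 422 and 378, and 172 and 149, so that the inhibitor lowered it (-1.32, SE 0.20, adjusted p = 1.5e-09). The Spi1 promoter was 489 and 520, 843 and 656, and 454 and 406, a change with RGFP966 of -0.80 by library totals and -1.15, called lower, after TMM.

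**Figure D4:**
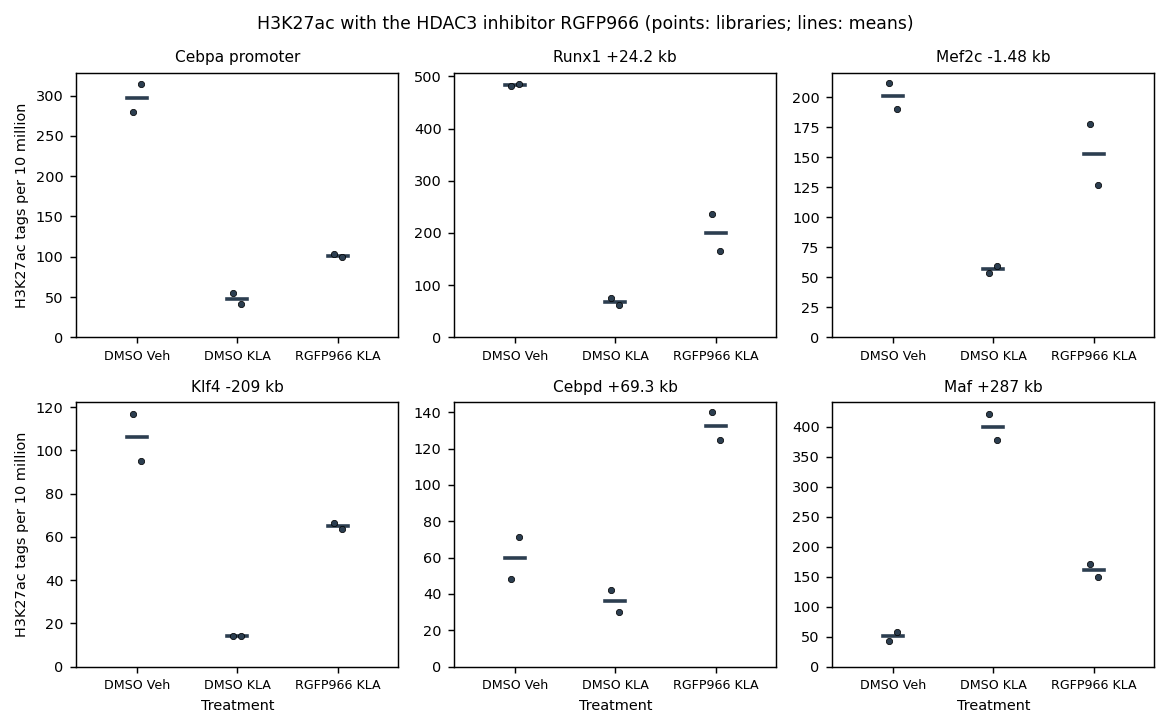
H3K27ac tags per 10M of each library (points) and group means (lines) with DMSO_Veh, DMSO_KLA and RGFP966_KLA (horizontal axis) at 6 sites of the loci. Mean H3K27ac at the Klf4 site was lowest with DMSO_KLA, while the Maf site at 287 kb was highest there, at 422 and 378.

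Few regions of the loci were called between the NCoR genotypes, in a table whose regions held few tags. Its regions held 5.55 to 7.18% of the tags of a library, against 21.97 to 35.87% in the other H3K27ac tables. The SE of the interaction, the difference in KLA response between genotypes, was 1.07 at the Irf8 promoter and 0.22 at the Spi1 promoter. A missing call at weakly covered regions therefore does not show that the mark was unchanged. Of 55 tested H3K27ac regions (70 listed) 3 were called higher and 3 lower with KLA in WT, against 6.49% and 3.72% of all regions, and 1 higher and 9 lower in NKO, against 2.75% and 7.96%. Those totals of 6 and 10 fell to between 2 and 4 without WT Veh replicate 1 (2), WT Veh replicate 2 (3) or WT KLA replicate 2 (3) and without NKO Veh replicate 1 (4) or NKO KLA replicate 2 (3). NKO against WT gave 1 higher and none lower with Veh, where 0.973% and 0.027% of all were called, and 1 higher and none lower with KLA, where 0.4% and 0.389% were. When the response to KLA was compared between the genotypes by the interaction term, none of the 55 was called (0.027% and 0.67% of all regions were called higher and lower). The call with Veh was not made after TMM or without WT Veh replicate 1, WT Veh replicate 2 or NKO Veh replicate 1. The region called with KLA lay 1 kb upstream of Cebpa (chr7:35117979-35118510), at 14.7 ± 2.3 in WT and 44 ± 7.46 tags per 10M in NKO (SD, n = 2 each, log2 change 1.56, SE 0.30, adjusted p = 0.00267), and no region was called without NKO KLA replicate 2.

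Deletion of Pgc1b gave no call at the loci with Veh, and calls mostly at Maf with KLA. LysMCre against flox/flox cells had none of the 90 tested regions (95 listed) called with Veh, where 0.107% and 0.29% of all regions were called higher and lower (without LysMCre Veh replicate 2 there was 1 call). With KLA 12 regions were lower and 1 higher, against 6.81% and 0.702% of all, and 11 of the 12 lower ones were at Maf. The higher one was the Klf4 site 284 kb upstream (chr4:55815554-55816554), with 3.06 and 3.1 tags per 10M in flox/flox and 9.39 and 9.12 in LysMCre cells (1.56, SE 0.56, adjusted p = 0.0158; 1.95 and called after TMM), a call lost when any 1 of the 4 KLA libraries was left out (1.54 to 1.58). After TMM 3 were lower and 1 higher. In the KLA libraries the tags in all regions were 22.38 and 21.97% of the total in LysMCre and 29.93 and 30.12% in flox/flox cells, and the part of this in the result was not tested beyond the rescaling.

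The KLA response differed by genotype at 8 regions, all lower in LysMCre cells and all at Maf, whereas 4.6% and 0.77% of all regions were called lower and higher in that test of the interaction. After TMM the Klf4 site 284 kb upstream was called in the other direction (1.77, adjusted p = 0.0432), where library totals gave 1.58 (SE 0.64, adjusted p = 0.0658). At 279 kb downstream of Maf (chr8:115427729-115428729), whose centre held the letters of a C/EBP motif, flox/flox cells had 111 and 125 tags per 10M with Veh and 249 and 255 with KLA, and LysMCre cells had 126 and 111 with Veh and 84.5 and 78.1 with KLA. Its interaction was -1.64 (SE 0.21, adjusted p = 9.07e-13; -1.46 after TMM). At 56.5 kb downstream flox/flox cells had 218 and 236 and then 138 and 128, and LysMCre cells 233 and 222 and then 49.8 and 44.3 (-1.51, SE 0.21, adjusted p = 7.8e-11; -1.32 after TMM). PGC1b itself was bound at 279 kb, with 32.3 and 39 tags per 10M in wild type cells with Veh and 108 and 86.4 with KLA, a log2 change of 1.43 that was not called without Veh replicate 1 (1.31) or replicate 2 (1.58). The 279 kb site was named for its lowest p in the interaction. Whether PGC1b binding goes with the interaction over the 8 regions was not tested. At the sites at 287 and 314 kb, which are not among the 8, both genotypes were called higher with KLA. Levels rose in both genotypes at the farthest downstream of the 8 as well. At 287 kb flox/flox cells went from 51.1 and 61.7 to 371 and 372 (2.73, SE 0.14) and LysMCre cells from 59.2 and 30.5 to 170 and 206 (2.06, SE 0.16).

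**Figure D5:**
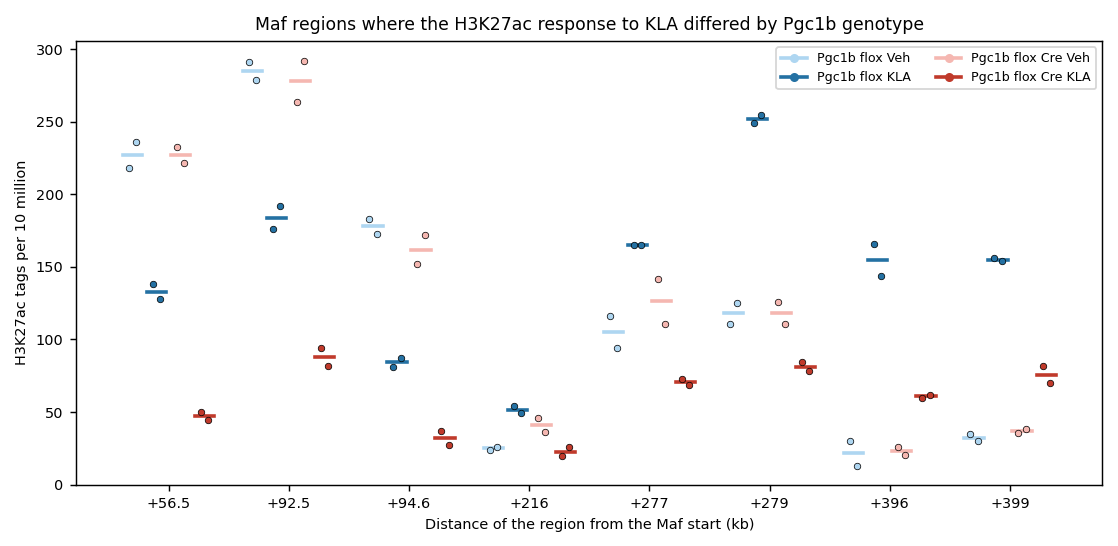
H3K27ac tags per 10M of each library (points) and group means (lines) at the 8 Maf regions (horizontal axis, distance from the Maf start in kb) where the KLA response differed by Pgc1b genotype. At 279 kb, for example, the KLA libraries had 84.5 and 78.1 in LysMCre and 249 and 255 in flox/flox cells. The 8 regions were chosen by the test of the interaction in these same libraries, so the levels shown are no separate support for it.

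NCoR was lower with the ERK inhibitor by library totals. With ERKi_KLA against KLA 115 of 220 regions of the loci were called lower and 1 higher, where 48.6% and 0.634% of all NCoR regions were called. The median log2 change was -1.23 at the loci and -1.20 over all regions, and after TMM it was -0.06 and -0.04, with 6 lower and 4 higher. Without KLA replicate 1 or 2 the total of 116 was 66 or 68. The inhibitor libraries carry another library date label than the KLA libraries, and the 2 cannot be told apart. The named sites called lower with both scalings were Klf4 at 284 kb upstream (chr4:55815888-55816123), with 88.3 and 65.7 tags per 10M with KLA and 8.45 and 11.2 with ERKi_KLA (-2.95, SE 0.36, adjusted p = 0.000106; -1.79 after TMM), and Runx1 at 35.3 kb upstream of the downstream promoter, with 74.5 and 71.9 and then 11.8 and 0.862 (-3.50, SE 0.62, adjusted p = 0.000702; -2.35 after TMM). In contrast, NCoR at the Spi1 element 6.22 kb upstream was 76.1 and 85.8 with KLA and 90.5 and 85.3 with the inhibitor (0.12; 1.28 and called higher after TMM).

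PGC1b with the ERK inhibitor was called higher at 1 and lower at 1 of 205 regions, against 0.108% and 0.178% of all. The higher one was the Klf4 element 209 kb upstream, with 123 and 176 tags per 10M with DMSO_Veh, 9.87 and 14.9 with DMSO_KLA and 105 and 85.3 with ERKi_KLA (2.89, SE 0.47, adjusted p = 0.0114; 3.09 after TMM). The KLA libraries were the lowest of the 3 groups at this site, and the inhibitor libraries lay below the vehicle libraries. The call was lost without DMSO_KLA replicate 1 (2.66), DMSO_KLA replicate 2 (3.24) or ERKi_KLA replicate 1 (2.74). Of the 205 regions none was called without either DMSO_KLA library, and 1 was called without DMSO_Veh replicate 1 or either ERKi_KLA library.

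During osteoclast culture p300 rose at 37 of 67 regions of the loci and fell at none from Day0 to Day4, where 62.2% and 0.248% of all p300 regions were called. The median log2 change was 1.58 at the loci and 1.84 over all, and 2 regions were called higher and 1 lower after TMM. The total of 37 was 8 without Day4 replicate 1 and 12 without Day4 replicate 2. Calls fell on Runx1 (18 of 23 regions), Klf4 (9 of 14), Maf (6 of 14) and Spi1 (4 of 4). At the Spi1 element 10.2 kb upstream p300 had 36.9 and 12.8 tags per 10M at Day0 and 122 and 174 at Day4 (2.42, SE 0.44, adjusted p = 0.000865; 0.79 and not called after TMM). ERK1 was called higher at 2 of 60 regions and lower at none, against 2.33% and 0.0267% of all, and at none after TMM. The 2 were Runx1 at 24.2 kb inside the gene, with 8.61 and 3.15 at Day0 and 45.1 and 49 at Day4 (2.94, SE 0.71, adjusted p = 0.0379; 2.01 and not called after TMM), and Maf at 314 kb downstream, with 2.58 and 0 at Day0 and 26.4 and 38.2 at Day4 (adjusted p = 0.0334, and 0.215 after TMM; no fold is given because the Day0 libraries had 3 and 0 tags). Neither was called without Day4 replicate 1 or replicate 2, the Runx1 region was not called without Day0 replicate 2 either (2.43), and 4 regions were called without Day0 replicate 1. By their library names the Day0 libraries and Day4 replicate 1 were marked NCoRWT, whereas Day4 replicate 2 lacked that mark, had a later replicate number and another date, so that mark, date and replicate cannot be told apart.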

How the data were processed

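Tables of 70 ChIP libraries from 35 groups of 2 were used, and the 30 input libraries were not analysed here. The authors merged the peaks of each protein, or used accessible sites for H3K27ac, and deposited raw tag counts per region with library totals from HOMER, aligned with Bowtie2 to mm10 per the labels. Windows were the region itself, except 1001 bases in the PGC1b and RGFP966 tables of H3K27ac. Raw counts were divided by the library total for the values printed. In R 4.3.3, edgeR 4.0.16 fitted each table with its groups and library totals only, over regions with at least 4 tags (16 for H3K27ac) in 1 library. SE is the log2 change divided by the square root of F. DESeq2 1.42.0, TMM, no filter, a replicate block and leaving out each library were the alternatives. The fit was tested on simulated data. Sites were named by a rule: promoter, most tags, lowest p in each direction per comparison, and known elements, grouped by position. Sequences came from RefSeq GRCm38.p6, the mm10 assembly, where 6 of the 9 genes had a promoter entry; Spi1, Cebpd and Maf had none. The genes, lists and sites were chosen with earlier results of these data known. 1 region of Cebpa is not reported here.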

Additional observations from a re-analysis of the deposited data

Results flagged for a closer look

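At 8 H3K27ac regions of Maf the KLA response of PGC1b flox/flox, LysMCre cells differed from that of PGC1b flox/flox cells in edgeR's test of the interaction, and each value below is the log2 response in LysMCre cells less that in flox/flox cells. It was -1.51 at 56.5 kb downstream, -1.04 at 92.5 kb, -1.25 at 94.6 kb, -1.90 at 216 kb, -1.49 at 277 kb, -1.64 at 279 kb, -1.43 at 396 kb and -1.22 at 399 kb. With TMM the value at 92.5 kb was -0.85 and not called, and the value at 396 kb was -0.98 and not called without flox/flox Veh replicate 2. At 216 kb the genotypes went opposite ways, from 24.1 and 25.6 to 53.9 and 49 tags per 10M in flox/flox cells and from 46.1 and 36.5 to 19.5 and 26 in LysMCre cells. At 399 kb both went up, from 34.8 and 29.8 to 156 and 154 and from 35.5 and 38.5 to 81.6 and 69.7.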

How the results depend on the processing

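Counts of called regions at the loci changed most with the scaling and with single libraries. With TMM and DESeq2 in turn the count went from 2 to 0 and 0 for ERK1 between days, from 26 to 42 and 52 for Fosl2, from 13 to 4 and 4 for H3K27ac between Pgc1b genotypes with KLA, from 1 to 0 and 0 between NCoR genotypes with Veh, from 116 to 10 and 14 for NCoR with the ERK inhibitor and from 37 to 3 and 1 for p300 between days, and with TMM from 53 to 35 for PGC1b with DMSO. Without 1 library in turn the counts ranged from 3 to 25 for ERK1 with KLA, 0 to 4 for ERK1 between days, 0 to 60 for Fosl2, 23 to 90 for HDAC3, 37 to 100 for NCoR, 66 to 122 for NCoR with the inhibitor, 23 to 70 for PGC1b, 23 to 54 for PGC1b with DMSO, 0 to 2 for PGC1b with the inhibitor, 55 to 59 for PU.1, 132 to 174 for p300, 8 to 49 for p300 between days and 64 to 128 for p65. For H3K27ac they ranged from 2 to 7 for KLA in WT, 3 to 11 in NKO, 38 to 41 with DMSO, 39 to 41 in flox/flox and 39 to 46 in LysMCre cells, 32 to 37 for RGFP966, 0 to 1 between NCoR genotypes with Veh and with KLA, 0 to 1 and 11 to 16 between Pgc1b genotypes with Veh and KLA, and 0 to 0 and 8 to 10 for the NCoR and Pgc1b interactions. A group left with 1 library was assumed to vary like the others. Reversed log2 changes, with TMM and DESeq2, were 1.11 and 1.13 at the Cebpd promoter, 0.17 and 0.18 at the Runx1 downstream promoter, 0.07 and 0.09 at Runx1 41.4 kb upstream, 0.09 and 0.11 at Maf 287 kb and 0.14 and 0.16 at Mef2c 1.48 kb for NCoR with the inhibitor; -0.49 and -0.40 at the Runx1 upstream promoter, -0.22 and -0.11 at Maf 212 kb, and with TMM -0.13 at Runx1 25 kb and -1.58 at Mef2c 1.48 kb for p300 between days; and -1.05 and -1.02 at Mef2c 35.9 kb for p65. The replicate numbers did not pair the libraries (correlation of replicate differences -0.027 to 0.088). With the replicate block the Fosl2 count was 7, and 16 of 308 called values at named sites were not called. Of the 308, 83 kept their direction but not their call with TMM and 6 reversed, 87 and 5 did so with DESeq2, and 2 lost their call without the filter on low counts.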

Other observations

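Genes with a region in every table were compared with the 9 loci by the log2 ratios of their summed tags over 23 comparisons, several of which share libraries, so that the correlations are descriptions. Among 3843 genes the highest Pearson correlations were with Marcks (0.99) for Maf, Oxr1 (0.98) for Klf4, Zmiz1 (0.97) for Runx1, Mirt1 (0.96) for Cebpa, Nrp2 (0.94) for Spi1, Cd200r3 (0.93) for Irf8, Rnase2b (0.91) for Mef2c and Osgin2 (0.90) for Cebpd. Cebpb had no region in some tables and was not compared.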
